A study of Mus musculus with 10 samples.

Results

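The 31 genes described here carry out glycolysis or belong to the transcriptional response to low oxygen. They were chosen by gene symbol from a list, with no measured value in the rule, out of 24358 gene symbols counted in mouse skin. The list was drawn up with earlier results of these data known. Shares of the 31 set beside those of all genes therefore describe these genes only. All 31 had reads in all 10 libraries (35 reads in the lowest) and all 31 passed the filter on low counts in every comparison. They comprise the hypoxia-inducible factor Hif1a and its hydroxylase Egln3, 2 glucose transporters, 9 genes of upper glycolysis and its regulation, 5 of lower glycolysis, 4 of lactate and pyruvate handling and 9 further hypoxia targets.

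The libraries hold total RNA of full-thickness biopsies of dorsal skin from 5 mice of strain C57Bl/6, euthanized at 10 or 14 weeks. From every animal came 1 lesional and 1 uninvolved biopsy, so the comparison of skin types is paired by mouse. The groups are lesional and uninvolved skin of IL-17C+KO mice (2465 and 2392), and lesional and uninvolved skin of IL-17C+ mice (2275, 2296 and 2237). The IL-17C transgene (interleukin-17C, a cytokine made by epithelia) is present in all 5, so uninvolved skin has it too and no group is wild type. The knockout, of interleukin-6 (Il6) per the title of the series, comes on top of it. The title describes the skin inflammation as psoriasiform. The sources used here give neither the promoter and cell type that drive the transgene nor the age of each mouse. Effects of age and of the genotype label therefore cannot be told apart.

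Glycolysis splits glucose into pyruvate in the cytosol, and pyruvate is either reduced to lactate and exported or oxidised in mitochondria. When oxygen is scarce, the prolyl hydroxylases (Egln genes) stop marking HIF-1α for degradation, and the HIF-1 dimer binds a core motif, ACGTG or GCGTG, near genes for glucose uptake, glycolysis, lactate export and blood vessel growth. HIF-1α is controlled largely at the protein level, which RNA counts do not show, while inflammation is also known to raise its messenger RNA. In skin, keratinocytes rely on glycolysis, and glucose uptake through GLUT1, the product of Slc2a1, is known to increase in wounds and in psoriasis.

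Libraries held 21056850 to 31072491 counts, of which the 31 genes took 0.798 to 1.86%. Il6 had 300 and 315 reads in lesional skin labelled IL-17C+KO and 55 and 71 in uninvolved skin so labelled. In libraries labelled IL-17C+ it had 18 to 69 reads in lesional skin and 4 to 9 in uninvolved skin. Il6 reads were thus more frequent under the knockout label, and the sources used here do not say which part of the gene is missing. Directions between genotypes below are those of the labels. Il17c had 2346 to 12550 CPM (counts scaled to library size) in lesional skin, against 533.8 to 15200 CPM in uninvolved skin. The highest of these, 15200 CPM, was in uninvolved skin of mouse 2237, whose muscle and neutrophil sums also hardly differed between its biopsies. The 22 skeletal muscle markers summed to 1155 to 9579 CPM in lesional skin, against 8891 to 67950 CPM in uninvolved skin. The 15 neutrophil markers summed to 2249 to 13060 CPM in lesional skin, against 176.3 to 2518 CPM in uninvolved skin. No marker of either list was at 0 in any library. The 12 markers of stressed keratinocytes summed to 11440 to 38120 CPM in lesional skin, against 1443 to 9773 CPM in uninvolved skin, and the 14 proliferation markers to 644 to 896.9 CPM, against 222.9 to 888.1 CPM.

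Per transcript length, the levels differed widely between genes. The authors' FPKM values (fragments scaled to transcript length and library size) averaged 1734 for Aldoa, 1079 for Gapdh and 1074 for Ldha over the 10 libraries. Aldoa encodes the aldolase that cleaves fructose-1,6-bisphosphate, Gapdh the oxidising dehydrogenase of the payoff phase, and Ldha the lactate dehydrogenase subunit that makes lactate. At the lower end were Ankrd37 (5.93 FPKM), a hypoxia-induced ankyrin-repeat gene, Car9 (1.93 FPKM), a membrane carbonic anhydrase, and Slc2a3 (1.52 FPKM), the high-affinity glucose transporter GLUT3. Gapdh and Ldha, next to each other in this order, did not differ beyond their spread. Eno1 had 8.09 FPKM per CPM where the other 30 genes had 0.163 to 1.24. Its near-identical copy Eno1b was counted separately and with more reads, so the count of Eno1 (enolase 1) is uncertain.

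**Figure D1:**
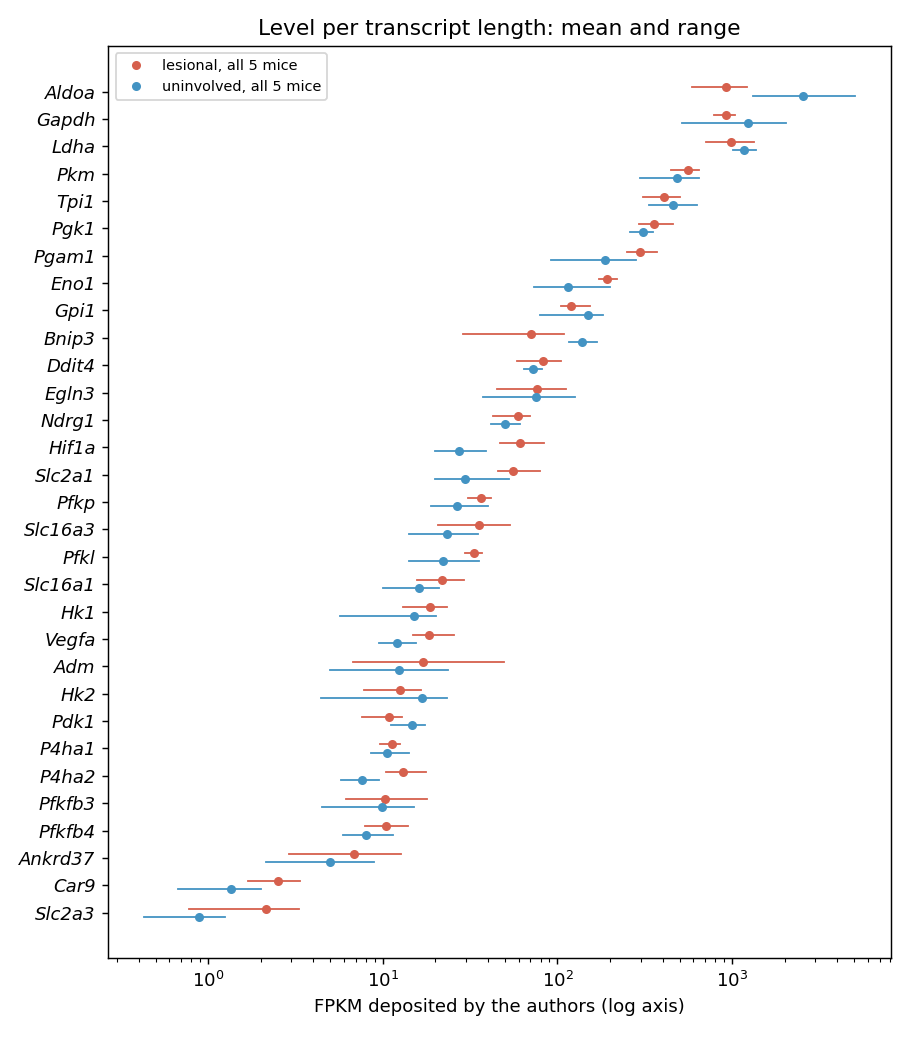
Level per transcript length of the 31 genes, in FPKM deposited by the authors on a log axis. Points are means and lines ranges over the 5 lesional and the 5 uninvolved libraries, with genes ordered by their mean over all 10. Aldoa and Bnip3 are the genes whose lesional mean lies furthest to the left of the uninvolved one.

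The HIF core motif was looked up in the RefSeq promoter windows (build GRCm38.p6) of 250 bases before to 50 bases after each start. There were 39 windows for 29 of the 31 genes, and none for Slc2a3 and Ndrg1. ACGTG stood on either strand in 23 of the 39 windows (59%), against 19.6% of all 32851 windows. GCGTG stood in 56.4% of the windows, against 32.4% of all, and either motif in 82.1%, against 43.8% of all. The list was made of glycolysis and hypoxia response genes, kinds of gene near which HIF-1 is known to bind. This share therefore describes the choice of genes. Windows of the same gene can overlap, as for Aldoa and Eno1, and each was counted. ACGTG was found in 5 of 6 genes with a window that were higher in lesional skin of all 5 mice. It stood in 2 of 3 that were lower in all 5 and in 14 of the other 20. These genes are too few to tell whether its presence goes with the directions described below. The 250 bases before the start are shown for Slc2a1, Car9 and P4ha2, which were higher in every lesional biopsy than in its uninvolved partner, for Bnip3, which was lower in every one, and for Ldha, which has the most ACGTG matches. Capitals mark ACGTG or GCGTG on either strand (CACGT and CACGC are the reverse complements, and CACGTG holds a match on both strands, where the 2 matches overlap).
Slc2a1, chr4:119108495-119108744, plus strand: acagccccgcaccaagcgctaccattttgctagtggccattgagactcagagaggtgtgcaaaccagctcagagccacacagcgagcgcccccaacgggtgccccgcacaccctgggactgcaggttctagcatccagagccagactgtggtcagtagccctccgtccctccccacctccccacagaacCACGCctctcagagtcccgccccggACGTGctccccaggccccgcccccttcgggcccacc
Car9, chr4:43506776-43507025, plus strand: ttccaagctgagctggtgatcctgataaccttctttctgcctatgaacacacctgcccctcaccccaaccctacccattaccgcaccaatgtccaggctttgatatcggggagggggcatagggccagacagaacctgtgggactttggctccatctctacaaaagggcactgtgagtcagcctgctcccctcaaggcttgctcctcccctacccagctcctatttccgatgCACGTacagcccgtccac
P4ha2, chr11:54100674-54100923, plus strand: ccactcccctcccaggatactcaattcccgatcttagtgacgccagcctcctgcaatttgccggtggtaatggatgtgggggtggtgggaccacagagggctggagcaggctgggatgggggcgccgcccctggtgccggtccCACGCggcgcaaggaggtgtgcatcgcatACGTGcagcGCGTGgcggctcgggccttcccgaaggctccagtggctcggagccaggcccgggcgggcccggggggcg
Bnip3, chr7:138909507-138909756, minus strand: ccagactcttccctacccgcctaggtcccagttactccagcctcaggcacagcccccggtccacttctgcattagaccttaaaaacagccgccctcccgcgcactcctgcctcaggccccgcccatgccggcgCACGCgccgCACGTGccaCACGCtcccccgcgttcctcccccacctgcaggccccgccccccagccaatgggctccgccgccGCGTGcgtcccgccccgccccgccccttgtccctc
Ldha, chr7:46845554-46845803, plus strand: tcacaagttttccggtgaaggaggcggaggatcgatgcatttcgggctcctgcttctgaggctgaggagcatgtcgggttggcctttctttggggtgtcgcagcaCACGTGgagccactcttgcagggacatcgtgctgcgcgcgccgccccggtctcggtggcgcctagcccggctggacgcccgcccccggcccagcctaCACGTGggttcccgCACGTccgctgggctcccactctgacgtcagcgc
In the Slc2a1 window the ACGTG begins 36 bases before the start, in Car9 its reverse complement begins 18 bases before the start, and in Bnip3 the CACGTG begins 108 bases before it. A match of 5 letters is a description of the sequence, and binding was not measured.

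Lesional skin was first compared with uninvolved skin over all 5 mice, with the mouse as a block. Hif1a, the glucose transporters Slc2a1 and Slc2a3, the phosphofructokinase Pfkl, Vegfa, the carbonic anhydrase Car9 and the collagen prolyl hydroxylase P4ha2 were higher in the lesional biopsy of every mouse, while Aldoa, Bnip3 and Pdk1 were lower in every mouse. The glycolytic genes had no common direction: of the 14 genes of upper and lower glycolysis 8 had positive and 6 had negative log2 changes. None of the 31 passed a false discovery rate (FDR) of 0.05 by edgeR's quasi-likelihood test, which called 8 of 16083 genes (0.0497%). The smallest adjusted p of the 31 was 0.0911, for Hif1a. By DESeq2, the same design called 2036 genes (12.7%) and 8 of the 31 (25.8%), namely Hif1a, P4ha2, Slc2a1, Slc2a3 and Car9 as higher and Aldoa, Bnip3 and Pdk1 as lower, and limma-voom called 4 genes and none of the 31. At an unadjusted p under 0.05 edgeR gave 12 of the 31 (38.7%), where 21.5% of all genes tested had one. Of these, 9 were higher (29% of the members, against 10.1% of all genes) and 3 lower (9.68%, against 11.5% of all genes). The median log2 change was 0.11 for the 31 genes and -0.01 for all genes tested, and 20 of 31 changes were positive (64.5%, against 49.4%). In bulk skin, fewer cells of a type and less RNA per cell cannot be told apart. With the mouse as a block, the p-values measure how the difference within a mouse varied between these mice. Each difference rests on 1 biopsy per skin type, so variation between biopsy sites and between mice cannot be told apart. Without mouse 2237, whose biopsies stood apart above, 14 of the 31 (45.2%) had an unadjusted p under 0.05, where 29.7% of all genes had one, and Hif1a, Slc2a1, P4ha2 and Bnip3 had log2 changes of 1.04, 0.79, 0.62 and -1.30. Of the 31 changes 17 were positive without that mouse, against 20 with all 5 mice. Their median was 0.15 without it, where that of all genes was -0.007. The share of positive changes among all genes was not counted without that mouse. Mouse 2237 had the highest median difference of the 31 genes, 0.55, where the other mice had 0.03 to 0.18. Without mouse 2465, or without mouse 2275, 8 of the 31 (25.8%) had an unadjusted p under 0.05. Of all genes, 12.7% and 12.5% had one.

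Within mice, 7 genes were higher in lesional skin in 5 of 5 mice, namely Hif1a, Slc2a1, Slc2a3, Pfkl, Vegfa, Car9 and P4ha2. That is 22.6% of the members, where 9.2% of all genes were. Another 3, Aldoa, Pdk1 and Bnip3, were lower in 5 of 5 mice (9.68%, where 9.56% of all genes were). The values of all 5 lesional biopsies lay above all 5 uninvolved ones for Hif1a and P4ha2 (6.45% of the members, 2.98% of all genes). They lay below for Aldoa and Bnip3 (6.45%, and 4.12% of all genes).

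**Figure D2:**
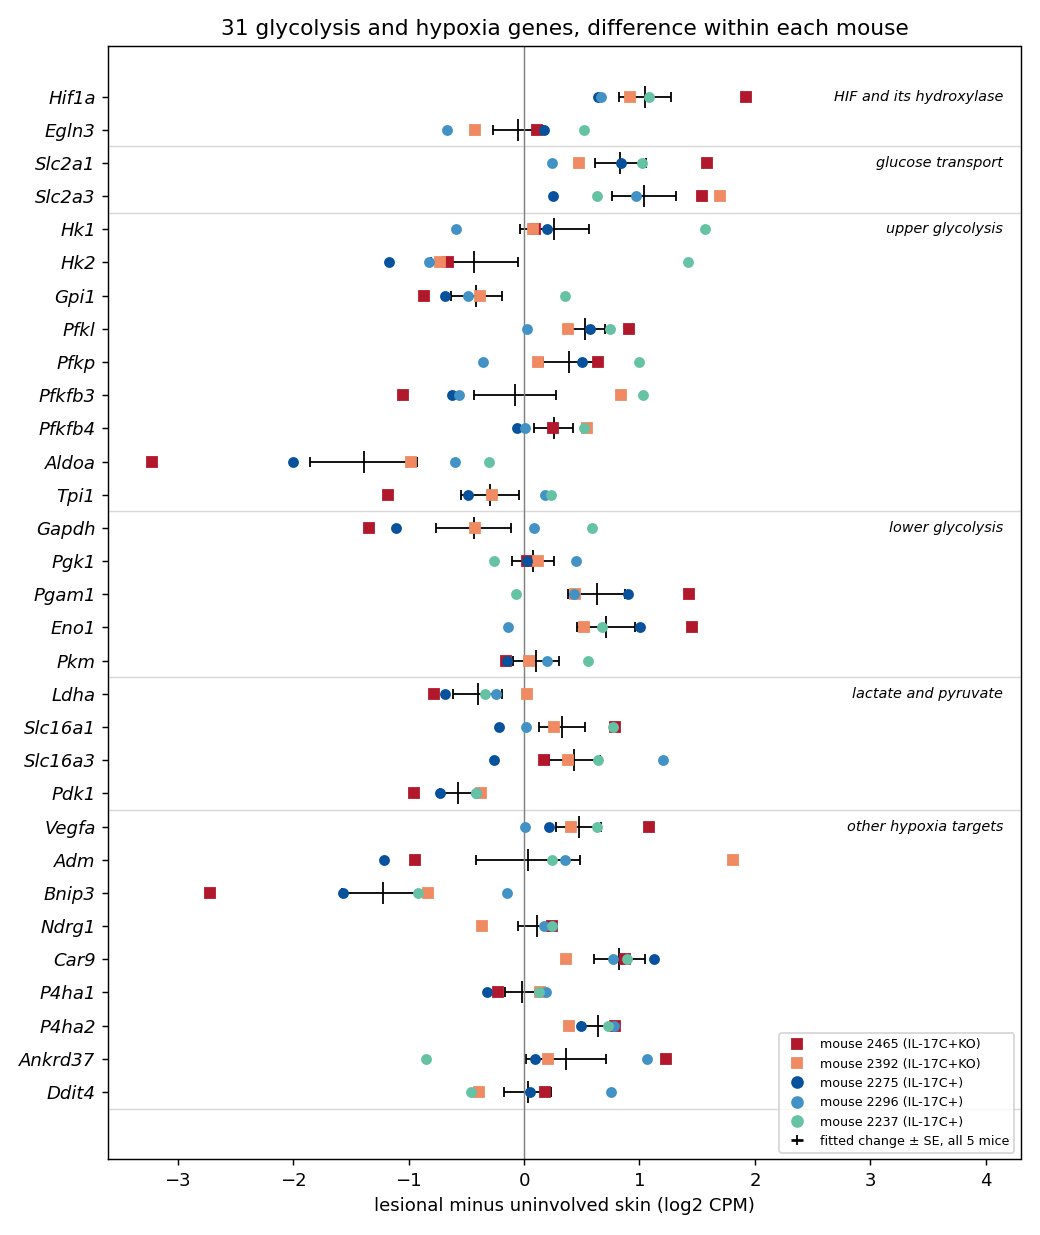
Difference of log2 CPM between the lesional and the uninvolved biopsy of each mouse for the 31 genes, grouped by role. Squares are mice labelled IL-17C+KO and circles IL-17C+ mice, and black marks show the fitted change over all 5 mice with its SE. Hif1a, both glucose transporters, Car9 and P4ha2 lie right of 0 in every mouse, Aldoa, Bnip3 and Pdk1 left of 0, and Hk2 lies left of 0 in 4 mice and at 1.42 in mouse 2237.

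Hif1a (chr12:73901375-73947530, GRCm38, plus strand), the oxygen-regulated subunit of HIF-1, had the smallest p of the 31. Its level in lesional skin was 418 and 330 CPM in the mice labelled IL-17C+KO (2465 and 2392) and 225, 328 and 235 CPM in IL-17C+ mice (2275, 2296 and 2237). In uninvolved skin it was 110 and 174 CPM in mice 2465 and 2392, and 144, 207 and 111 CPM in mice 2275, 2296 and 2237. Every lesional biopsy lay above every uninvolved one, and mouse 2465 had both the highest lesional level and the largest difference. The log2 change was 1.05 ± 0.23 (SE, 5 mice; edgeR adjusted p = 0.0911). Fitted without the mouse block, its adjusted p was 0.0426, and that of Pdk1 was 0.0427, the only members called in that fit, which called 5.54% of all genes. Egln3 (chr12:54178981-54203860, minus strand), the hydroxylase that HIF itself induces and that marks HIF-1α, showed no common direction. It had 121 and 189 CPM in lesional skin of mice 2465 and 2392 and 203, 229 and 293 CPM in that of mice 2275, 2296 and 2237, against 112, 254, 180, 364 and 204 CPM in uninvolved skin of the same mice in that order. It was higher in 3 mice and lower in 2, with a log2 change of -0.05 ± 0.22 (edgeR adjusted p = 0.912).

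Both glucose transporters were higher in lesional skin of all 5 mice. Slc2a1 (chr4:119108711-119137983, plus strand), encoding the basal glucose transporter GLUT1, had 203 and 122 CPM in lesional skin of mice 2465 and 2392 and 114, 173 and 115 CPM in that of mice 2275, 2296 and 2237. In uninvolved skin of the same mice it had 67.8 and 87.8 CPM, and 63.8, 146 and 56.5 CPM. The groups overlapped only because uninvolved skin of mouse 2296 was above 3 of the lesional biopsies. Its log2 change was 0.84 ± 0.22 (edgeR adjusted p = 0.116). Slc2a3 (chr6:122727809-122801640, minus strand), encoding GLUT3, which leukocytes also use, had 13.5 and 12.03 CPM in lesional skin of mice 2465 and 2392 and 5.26, 10.7 and 3.06 CPM in that of mice 2275, 2296 and 2237. Its uninvolved levels were 4.598 and 3.65 CPM, and 4.42, 5.45 and 1.94 CPM. The 3 highest lesional levels were more than any uninvolved level, and mouse 2237 was lowest in both skin types. The log2 change of Slc2a3 was 1.04 ± 0.28 (edgeR adjusted p = 0.118). The neutrophil marker sum moved in the same direction in 4 of the 5 mice, with log2 ratios of 5.18, 2.44, 3.52 and 2.37 in mice 2465, 2392, 2275 and 2296. In mouse 2237 that ratio was 0.04, while the differences of Slc2a1 and Slc2a3 there were 1.03 and 0.64 on the log2 scale. The sum of stressed keratinocyte markers was higher in lesional skin of all 5 mice, with log2 ratios of 4.41, 1.71, 2.79, 1.96 and 0.87 in mice 2465, 2392, 2275, 2296 and 2237. In mouse 2237 the endothelial sum had a log2 ratio of 0.87, the sum of basal and suprabasal keratinocyte markers of 0.66, the fibroblast sum of 0.53 and the adipocyte sum of -0.69. The part of these cells in the differences of Slc2a1 and Slc2a3 was not tested.

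**Figure D3:**
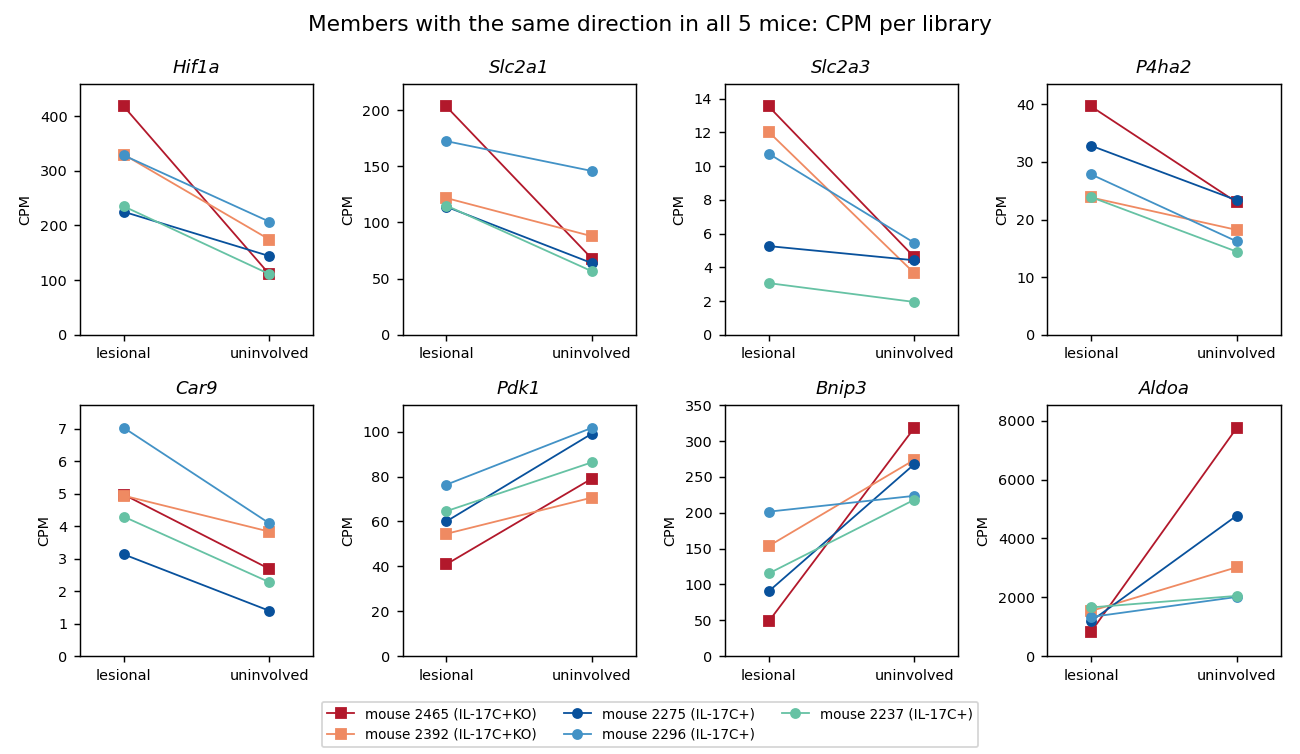
CPM of 8 genes in the lesional (left) and uninvolved (right) biopsy of each mouse, joined by a line, on axes that start at 0. All 5 lines slope one way in each panel, with Hif1a, Slc2a1, Slc2a3, P4ha2 and Car9 higher in lesional skin and Pdk1, Bnip3 and Aldoa lower.

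Upper glycolysis was split. Pfkl (chr10:77986947-78010083, minus strand), the liver-type phosphofructokinase that also serves leukocytes, had 113 and 143 CPM in lesional skin of mice 2465 and 2392 and 113, 147 and 127 CPM in that of mice 2275, 2296 and 2237. Uninvolved levels were 60.2 and 109 CPM, and 76.0, 145 and 75.6 CPM. All 5 differences were positive but that of mouse 2296 was only 0.02 on the log2 scale, and the fitted log2 change was 0.53 ± 0.18 (edgeR adjusted p = 0.155). Pfkp, the platelet type of the same enzyme, had a log2 change of 0.39 ± 0.22, with 4 of 5 mice higher. The kinase-phosphatases that set the level of its activator fructose-2,6-bisphosphate differed little on average. Pfkfb4 had a log2 change of 0.26 ± 0.17, and Pfkfb3 of -0.08 ± 0.35 with mouse differences of -1.05 to 1.03.

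Aldoa (2 gene records on the minus strand, chr7:126795234-126800751 and chr7:126800790-126809108) had the largest negative change of the 31. It had 831 and 1534 CPM in lesional skin of mice 2465 and 2392 and 1190, 1329 and 1654 CPM in that of mice 2275, 2296 and 2237. The uninvolved partners had 7758 and 3020 CPM, and 4776, 2010 and 2046 CPM. All lesional levels lay below the uninvolved ones, which were highest in mice 2465 and 2275. The fit gave a log2 change of -1.39 ± 0.46 (edgeR adjusted p = 0.155). Aldoa is also a main enzyme of fast skeletal muscle, and the muscle marker sum had log2 ratios of -5.88, -2.67, -3.12, -2.08 and 0.11 in mice 2465, 2392, 2275, 2296 and 2237, where the Aldoa differences were -3.22, -0.98, -2.0, -0.60 and -0.31. The part of muscle in the Aldoa change was not tested. The testis copy Aldoart1, which is nearly identical to Aldoa and may share its reads, had mouse differences of -3.40 to -0.26.

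Hk2 (chr6:82725025-82774454, minus strand), the inducible hexokinase that traps glucose in the cell, had 94.8 and 76.3 CPM in lesional skin of mice 2465 and 2392 and 63.2, 49.3 and 76.0 CPM in that of mice 2275, 2296 and 2237. Its levels in uninvolved skin were 150 and 127 CPM, and 143, 87.2 and 28.4 CPM. It was lower in lesional skin of 4 mice and higher in mouse 2237, whose uninvolved level was the lowest of the 10. The log2 change over all mice was -0.43 ± 0.38 (edgeR adjusted p = 0.55). Without mouse 2237 it was -0.84 with an edgeR adjusted p of 0.0288. Hk2 was the 1 member called in that fit, which called 1249 of 15934 genes (7.84%). Its differences were -0.66, -0.73, -1.17, -0.82 and 1.42 in mice 2465, 2392, 2275, 2296 and 2237. The muscle marker sum had log2 ratios of -5.88, -2.67, -3.12, -2.08 and 0.11 in the same mice. The part of muscle in the Hk2 change was not tested. Hk1, the constitutive hexokinase, had a log2 change of 0.26 ± 0.30, and its largest mouse difference, 1.57, was again in mouse 2237. Gpi1 (glucose-6-phosphate isomerase) and Tpi1 (triose-phosphate isomerase) had log2 changes of -0.41 ± 0.22 and -0.30 ± 0.25. Gpi1 was lower in all mice but 2237, and Tpi1 in all but 2296 and 2237.

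In lower glycolysis 4 of 5 genes had positive changes. Eno1 (chr4:150236721-150248879, plus strand), the enolase of most tissues, had 25.8 and 25.7 CPM in lesional skin of mice 2465 and 2392 and 19.7, 23.5 and 19.99 CPM in that of mice 2275, 2296 and 2237. In uninvolved skin it had 9.35 and 17.9 CPM, and 9.79, 25.8 and 12.5 CPM. Lesional levels were close together, and mouse 2296 was the only one without a higher lesional level. The log2 change was 0.71 ± 0.25 (edgeR adjusted p = 0.169), and Eno1b, the copy with more reads, was higher in all 5 mice by 0.19 to 1.45. Pgam1 (chr19:41911923-41918660, plus strand), the brain-type phosphoglycerate mutase found in most tissues, had 489 and 543 CPM in lesional skin of mice 2465 and 2392 and 429, 724 and 471 CPM in that of mice 2275, 2296 and 2237. Uninvolved levels were 182 and 400 CPM, and 230, 535 and 496 CPM. It was higher in 4 of 5 mice, with a log2 change of 0.63 ± 0.25 (edgeR adjusted p = 0.202). Pgk1, an ATP-forming kinase, and Pkm, which makes pyruvate, had log2 changes of 0.08 ± 0.18 and 0.10 ± 0.20. Gapdh, often used as an unchanging reference gene, had a log2 change of -0.44 ± 0.33 with mouse differences between -1.34 and 0.59. Its lesional levels were 941 to 1332 CPM, a narrower range than the 715 to 2853 CPM of uninvolved skin.

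Among genes of lactate and pyruvate, Pdk1 was lower and lactate dehydrogenase was not higher. Pdk1 (chr2:71873224-71903858, plus strand) encodes a kinase that inactivates pyruvate dehydrogenase and is a known HIF target. It had 40.9 and 54.5 CPM in lesional skin of mice 2465 and 2392. In that of mice 2275, 2296 and 2237 it had 60.0, 76.4 and 64.6 CPM. The uninvolved partners had 79.1 and 70.6 CPM, and 99.1, 102 and 86.3 CPM. All 5 pairs differed in the same direction, and only the lesional biopsy of mouse 2296 lay above an uninvolved one. Its fitted log2 change was -0.57 ± 0.15 (edgeR adjusted p = 0.118). Ldha (chr7:46841475-46855627, plus strand) had 1278 and 2064 CPM in lesional skin of mice 2465 and 2392 and 1055, 1920 and 1360 CPM in that of mice 2275, 2296 and 2237. Its levels in uninvolved skin were 2195 and 2021 CPM, and 1696, 2266 and 1723 CPM. It was lower in 4 mice and nearly equal in mouse 2392, with a log2 change of -0.40 ± 0.21 (edgeR adjusted p = 0.328). Its differences were most negative in mice 2465 and 2275 (-0.78 and -0.69), as were those of Gapdh (-1.34 and -1.10). The muscle marker sum, among others, also differed most in these mice (log2 ratios of -5.88 and -3.12). The part of muscle in both genes was not tested. Slc16a3 (chr11:120948480-120960868, plus strand), the lactate exporter MCT4, had 108 and 80.0 CPM in lesional skin of mice 2465 and 2392 and 48.6, 144 and 60.3 CPM in that of mice 2275, 2296 and 2237, against 95.2, 61.4, 58.1, 62.5 and 38.6 CPM in uninvolved skin of the same mice. The groups overlapped and mouse 2296 had the largest difference, 1.21 on the log2 scale. The fit gave a log2 change of 0.43 ± 0.22 (edgeR adjusted p = 0.309), and that of Slc16a1, the lactate and pyruvate transporter MCT1, was 0.33 ± 0.20.

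Of the 9 further hypoxia targets, 3 were higher in every mouse. P4ha2 (chr11:54100095-54131665, plus strand), a collagen prolyl 4-hydroxylase subunit, had 39.6 and 23.8 CPM in lesional skin of mice 2465 and 2392 and 32.8, 27.8 and 23.9 CPM in that of mice 2275, 2296 and 2237. In uninvolved skin it had 23.0 and 18.2 CPM, and 23.4, 16.2 and 14.4 CPM. The groups did not overlap, though the lowest lesional level was within 0.5 CPM of the highest uninvolved one. The log2 change was 0.64 ± 0.15 (edgeR adjusted p = 0.1), while that of its partner isoform P4ha1 was -0.01 ± 0.15. The 12 fibroblast markers summed to 6742 to 33440 CPM in lesional skin and 2809 to 4668 CPM in uninvolved skin, and their part in the P4ha2 difference was not tested.

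Car9 (chr4:43506966-43513729, plus strand), which acidifies the outside of hypoxic cells, was rare, with 4.97 and 4.94 CPM in lesional skin of mice 2465 and 2392 and 3.13, 7.03 and 4.29 CPM in that of mice 2275, 2296 and 2237. Uninvolved levels were 2.68 and 3.83 CPM, and 1.39, 4.09 and 2.27 CPM. Every pair differed in the same direction although the groups overlapped. Its fitted log2 change was 0.82 ± 0.22 (edgeR adjusted p = 0.118). Vegfa (chr17:46016993-46032369, minus strand), the main endothelial growth factor, had 87.9 and 67.6 CPM in lesional skin of mice 2465 and 2392 and 49.4, 55.7 and 54.3 CPM in that of mice 2275, 2296 and 2237. The uninvolved partners had 41.4 and 50.9 CPM, and 42.4, 55.5 and 35.1 CPM. Mouse 2296 had equal levels within 0.2 CPM, and the log2 change was 0.47 ± 0.19 (edgeR adjusted p = 0.218).

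Bnip3 (chr7:138890836-138909519, minus strand), a mitophagy receptor and one of the best-known HIF targets, was lower; it is given in full because of its value. It had 48.3 and 154 CPM in lesional skin of mice 2465 and 2392 and 90.3, 202 and 115 CPM in that of mice 2275, 2296 and 2237. Its levels in uninvolved skin were 319 and 274 CPM, and 268, 224 and 218 CPM. All lesional levels lay below all uninvolved ones, and the log2 change was -1.22 ± 0.36 (edgeR adjusted p = 0.133). Its differences were largest in mice 2465 and 2275. The same mice had the largest differences of the muscle, neutrophil, stressed keratinocyte, fibroblast, adipocyte, hair follicle and proliferation sums. This did not hold for the macrophage, endothelial, basal and suprabasal keratinocyte and red cell sums. Hair follicle sums had log2 ratios of 4.28 and 5.81 in mice 2465 and 2275. In mice 2392, 2296 and 2237 these ratios were -0.89, -0.85 and -0.48. In mouse 2237, where the muscle sum was nearly equal in both biopsies, Bnip3 differed by -0.92, Pdk1 by -0.42, Hif1a by 1.08 and Slc2a1 by 1.03. The keratinocyte, endothelial, fibroblast and adipocyte sums did differ between the biopsies of that mouse, as given for the glucose transporters, and their part was not tested. The remaining targets varied in direction between mice. Log2 changes were 0.36 ± 0.35 for Ankrd37, 0.11 ± 0.16 for the stress-responsive Ndrg1, 0.03 ± 0.21 for the mTOR inhibitor Ddit4 and 0.03 ± 0.45 for the vasodilator peptide gene Adm, whose mouse differences ran from -1.22 to 1.81.

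The muscle forms of several enzymes were measured beside the widely expressed forms. Eno3, the muscle enolase, averaged 131 ± 85.3 FPKM in lesional skin and 699 ± 521 FPKM in uninvolved skin (SD, 5 mice each). Its differences were -6.03, -2.43, -3.09, -0.85 and -0.38 in mice 2465, 2392, 2275, 2296 and 2237, against 1.46, 0.52, 1.0, -0.14 and 0.67 for Eno1. Pfkm, the muscle phosphofructokinase, averaged 34.8 ± 19.6 FPKM in lesional and 163 ± 145 FPKM in uninvolved skin, and Pgam2, the muscle phosphoglycerate mutase, 63.2 ± 36.9 and 368 ± 254 FPKM in the same order. Slc2a4, encoding the insulin-responsive GLUT4 of muscle and fat, averaged 14.2 ± 5.12 FPKM in lesional and 52.7 ± 26.0 FPKM in uninvolved skin. Log2 changes were -2.40 ± 0.83 for Eno3, -1.99 ± 0.80 for Pfkm, -2.54 ± 0.73 for Pgam2 and -1.94 ± 0.50 for Slc2a4, none of them past the FDR (edgeR adjusted p of 0.166, 0.21, 0.128 and 0.116). The widely expressed and the muscle form thus differed in opposite directions in 4 of 5 mice for enolase and in all 5 for the glucose transporters. The enolase pair rests on the uncertain count of Eno1. For phosphofructokinase (Pfkl and Pfkm) and the mutase (Pgam1 and Pgam2) directions were opposite in every mouse but 2237. There Pfkl and Pfkm differed by 0.74 and 0.75, and Pgam1 and Pgam2 by -0.07 and -0.41. The muscle marker sum had the direction of the muscle forms in mice 2465, 2392, 2275 and 2296. In mouse 2237 its log2 ratio was 0.11, while Eno3, Pgam2 and Slc2a4 (-0.46) were lower and Pfkm was higher. The adipocyte sum had log2 ratios of -3.43, 0.41, -1.61, -0.60 and -0.69 in mice 2465, 2392, 2275, 2296 and 2237. The part of muscle and of fat in these differences was not tested.

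**Figure D4:**
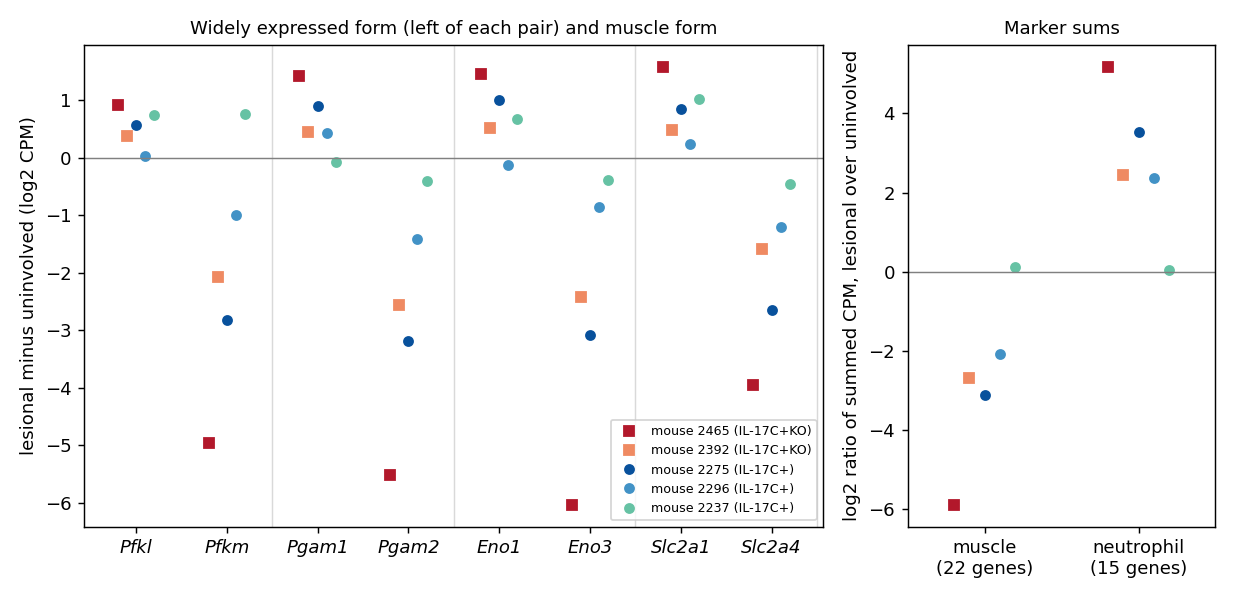
Left, difference of log2 CPM between lesional and uninvolved skin in each mouse for 4 widely expressed genes (left of each pair) and their muscle forms. Right, log2 ratio of the summed CPM of 22 muscle and 15 neutrophil markers, with squares for mice labelled IL-17C+KO and circles for IL-17C+ mice. Mouse 2465 has the largest differences of the muscle forms, and mouse 2237 has both marker sums near 0.

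Further genes of the same pathways were counted from lists that, like the 31 genes, were drawn up with earlier results of these data known. No gene of these 6 lists passed the FDR by edgeR. The 10 genes named below from the lists of isoforms, hypoxia targets, pyruvate entry and oxidation, and glycogen all passed by DESeq2, which called 12.7% of all genes. They were named for the smallest p in these same data, so their passing says nothing about the lists as a whole. Over all genes tested, 49.4% had positive changes, 10.1% were higher and 11.5% lower at an unadjusted p under 0.05. Of 23 other isoforms of glycolysis tested, 7 had positive and 16 negative changes (3 and 10, or 13% and 43.5%, at an unadjusted p under 0.05). Among those with the smallest p were Hk3, a leukocyte hexokinase, at 1.89 ± 0.34, and Gapdhs, the sperm form of Gapdh, at -1.52 ± 0.30. Gapdhs was lower, and Hk3 higher, in lesional skin of all 5 mice. The 17 regulators of HIF gave 7 positive and 10 negative changes (0 and 1, or 5.88%, at an unadjusted p under 0.05), none in 1 direction in all mice, led by Cited2, which competes with HIF for its coactivator, at -0.64 ± 0.27. Siah2, a ubiquitin ligase for prolyl hydroxylases, followed at 0.48 ± 0.22 and the hydroxylase Egln2 at -0.36 ± 0.19.

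Of 50 other hypoxia targets 30 were positive and 20 negative (15 and 4, or 30% and 8%, at an unadjusted p under 0.05), with a median of 0.19. Among those with the smallest p were the collagen cross-linker Loxl2 at 1.72 ± 0.30 and the inducible nitric oxide synthase Nos2 at 2.19 ± 0.49, each higher in 5 of 5 mice (edgeR adjusted p of 0.0687 and 0.0942). Of 14 genes of pyruvate entry into mitochondria and oxidation there, 12 were negative, with a median of -0.85. At an unadjusted p under 0.05, 10 of the 14 (71.4%) were negative. Among them were Pdp1, the phosphatase that reactivates pyruvate dehydrogenase, at -0.91 ± 0.19, Pdk4 at -2.59 ± 0.75 and the pyruvate carrier subunit Mpc1 at -1.01 ± 0.30. Of 15 genes of gluconeogenesis and glycogen 13 were negative (7 of the 15, or 46.7%, and 1 positive at an unadjusted p under 0.05), with a median of -1.08, led by Ugp2 at -1.51 ± 0.33, Gbe1 at -1.30 ± 0.345 and Gyg at -1.80 ± 0.49, which make and prime glycogen. The 9 genes of the pentose phosphate pathway were split, 5 positive and 4 negative with none at an unadjusted p under 0.05, with Tigar at -0.61 ± 0.27, G6pdx at 0.38 ± 0.19 and Pgd at 0.29 ± 0.17. Glycogen and pyruvate oxidation are prominent in muscle, whose markers moved in the same direction, and their part was not tested.

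The lesional change was then taken separately under each genotype label, in 1 fit with the mouse as a block. In IL-17C+ mice no gene of 16083 passed the FDR by edgeR (0%), and DESeq2 called 247 genes (1.54%) and none of the 31, limma-voom none. At an unadjusted p under 0.05 edgeR gave 3 of the 31, P4ha2, Hif1a and Car9 (9.68%, against 6.41% of all genes). Without mouse 2275, or without mouse 2296, 1 member had one, against 2.57% and 8.41% of all genes. All 3 were higher, where 3.54% of all genes were, and no member was lower at that level, where 2.87% of all genes were. Positive changes made up 64.5% of the 31 and 48.5% of all genes. Without mouse 2237, 16 of the 31 were positive and the median log2 change of the 31 was 0.02, against 0.15 with that mouse. The median of all genes was -0.01 without it, and their share of positive changes was not counted. At an unadjusted p under 0.05 that fit gave 2 of the 31 and 1625 of 15934 genes. In 3 of 3 mice, 8 members were higher (25.8%, against 12.6% of all genes) and 4, Pdk1, Ldha, Aldoa and Bnip3, were lower (12.9%, against 13.1%). Log2 changes were 0.95 ± 0.32 for Car9, 0.66 ± 0.23 for P4ha2, 0.79 ± 0.28 for Hif1a and 0.70 ± 0.30 for Slc2a1. In mice labelled IL-17C+KO, 2 genes passed by edgeR (0.0124%), the chemokine gene Cxcl5 and the muscle gene Csrp3, named for their values, and none of the 31. There, 7 of the 31 had an unadjusted p under 0.05 (22.6%, against 13.5% of all genes). Without mouse 2465 there were 2 (against 3.71% of all genes) and without mouse 2275 there were 4 (against 12.8%). Of the 7, 5 were higher (16.1%, against 6.16% of all genes) and 2 lower (6.45%, against 7.31%). Positive changes made up 54.8% of the 31 and 50.2% of all genes. In 2 of 2 mice, 16 members were higher (51.6%, against 31.4% of all genes) and 7 lower (22.6%, against 35.7%). DESeq2 called 1157 genes (7.19%) and 4 of the 31 (12.9%), Hif1a, Slc2a3, Aldoa and Bnip3. By edgeR the log2 change was 1.65 ± 0.37 for Slc2a3, 1.44 ± 0.36 for Hif1a, -1.76 ± 0.57 for Bnip3 and -2.08 ± 0.74 for Aldoa.

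The difference of the lesional changes, IL-17C+KO minus IL-17C+, was tested directly and was not called for any gene (0%), by edgeR. At an unadjusted p under 0.05 it gave none of the 31, where 1.17% of all genes had one (0.572% higher and 0.597% lower). DESeq2 called 6 genes (0.0373%) and none of the 31, limma-voom none. Fits without mouse 2392 or without mouse 2465 leave 1 IL-17C+KO mouse. The median of the 31 differences was -0.02 with all mice, -0.05 without mouse 2392 and 0.02 without mouse 2465. For all genes it was -0.02 without mouse 2392 and 0.01 without mouse 2465. The smallest p of the 31 was 0.0662, for Slc2a3, at 1.03 ± 0.47 (adjusted p = 1). Hif1a followed at 0.64 ± 0.45, Tpi1 at -0.68 ± 0.52 and Bnip3 at -0.87 ± 0.71. Without mouse 2465 the difference for Bnip3 was 0.08. With 2 and 3 mice these data do not show that the lesional change of any of the 31 genes differs between the labels, nor that it is alike.

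Within lesional skin, 2 libraries labelled IL-17C+KO were compared with 3 labelled IL-17C+. No gene of 15691 passed the FDR by edgeR (0%) or limma-voom. Adm, Vegfa and Slc16a1 had an unadjusted p under 0.05 (9.68% of the 31, against 7.3% of all genes), all 3 higher under the knockout label, where 4.77% of all genes were. None was lower at that level, where 2.53% of all genes were. The count of 3 was 1 without mouse 2237 (against 3.35% of all genes) or without 2275 (4.32%), 8 without 2296 (12.8%) and 5 without 2392 (9.89%). Differences were positive for 71% of the 31 and 50.7% of all genes. Adm, whose peptide adrenomedullin dilates vessels, had 17.4 and 64.0 CPM in lesional skin of mice 2465 and 2392 labelled IL-17C+KO, against 8.74, 11.3 and 8.40 CPM in that of IL-17C+ mice 2275, 2296 and 2237. The groups did not overlap, and mouse 2392 alone was above 20 CPM. The log2 difference was 2.13 ± 0.53 (edgeR adjusted p = 0.577), and Adm was the 1 member that DESeq2 called here, with an adjusted p of 0.0172 among 213 genes (1.36%). Vegfa averaged 77.8 ± 14.4 CPM in lesional skin labelled IL-17C+KO and 53.1 ± 3.32 CPM in that labelled IL-17C+ (SD, n = 2 and 3 mice), and its log2 difference was 0.58 ± 0.18 (edgeR adjusted p = 0.586). Slc16a1 averaged 126 ± 12.4 CPM and 85.2 ± 13.9 CPM in the same order, with a log2 difference of 0.60 ± 0.19 (edgeR adjusted p = 0.589). Hk1 was the next, at 0.46 ± 0.18 (edgeR adjusted p = 0.69).

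In all, 8 of the 31 genes had both IL-17C+KO lesional values above all 3 IL-17C+ ones (25.8%, where 11.7% of all genes did). They were Adm, Vegfa, Slc16a1, Hif1a, Hk1, Hk2, Eno1 and Slc2a3. Egln3 and Pdk1 lay below in the same way (6.45%, where 13.1% of all genes did). For Hif1a the lowest lesional value labelled IL-17C+KO, 329.5 CPM, was next to the highest IL-17C+ value, 328.1 CPM. Marker sums differed between the labels too. All 10 endothelial markers were positive, with sums of 545.1 to 606.1 CPM in lesional skin labelled IL-17C+KO and 252 to 386.4 CPM in that labelled IL-17C+. All 12 fibroblast markers were positive (9358 to 33440 against 6742 to 15190 CPM), as were all 13 macrophage markers (1322 to 2632 against 848.6 to 1792 CPM). All 14 hair follicle markers were negative (68.16 to 2453 against 1230 to 8834 CPM, with 1 marker at 0 in 1 library), as were all 22 muscle markers (1155 to 6907 against 4201 to 9579 CPM). Their part in the member differences was not tested.

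Within uninvolved skin, no gene of 15568 passed the FDR by edgeR (0%) or limma-voom, and DESeq2 called 11 (0.0707%), none of the 31. Ankrd37 was the only member with an unadjusted p under 0.05 (3.23%, against 3.73% of all genes). Without mouse 2392, or without 2465, no member had one (against 2.13% and 0.54% of all genes), and without 2275 there were 4 (against 15.8%). Ankrd37 was lower, as were 1.82% of all genes, and no member was higher, where 1.91% of all genes were. Differences were positive for 64.5% of the 31 and 48.9% of all genes. Ankrd37 had 2.34 and 1.92 CPM in uninvolved skin of mice 2465 and 2392 labelled IL-17C+KO, against 4.02, 5.06 and 7.56 CPM in that of IL-17C+ mice 2275, 2296 and 2237. The groups did not overlap, at a level of at most a few CPM, and the log2 difference was -1.39 ± 0.46 (edgeR adjusted p = 0.849). Adm was next at 1.09 ± 0.52, then Slc16a3 at 0.55 ± 0.34 and Gapdh at 0.78 ± 0.54. Ddit4, Tpi1, Gpi1, Bnip3 and Pkm lay above all IL-17C+ values in both IL-17C+KO libraries (16.1% of the 31, where 11.7% of all genes did), and Pdk1 and Ankrd37 lay below (6.45%, where 9.2% did). All 22 muscle markers were positive here, with sums of 44000 to 67950 CPM in uninvolved skin labelled IL-17C+KO and 8891 to 48930 CPM in that labelled IL-17C+. All 10 endothelial markers were positive (505.2 to 589.4 against 137.9 to 422.9 CPM). All 14 hair follicle markers (126.1 to 126.3 against 157.1 to 10960 CPM) and all 14 proliferation markers (222.9 to 353.2 against 283.4 to 888.1 CPM) were negative. Their part in the member differences was not tested. Adm was thus higher under the knockout label in lesional skin without overlap, while in uninvolved skin its 33.5 and 18.2 CPM overlapped the 20.4, 8.80 and 7.11 CPM of IL-17C+ mice. Both comparisons use the same 5 mice.

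**Figure D5:**
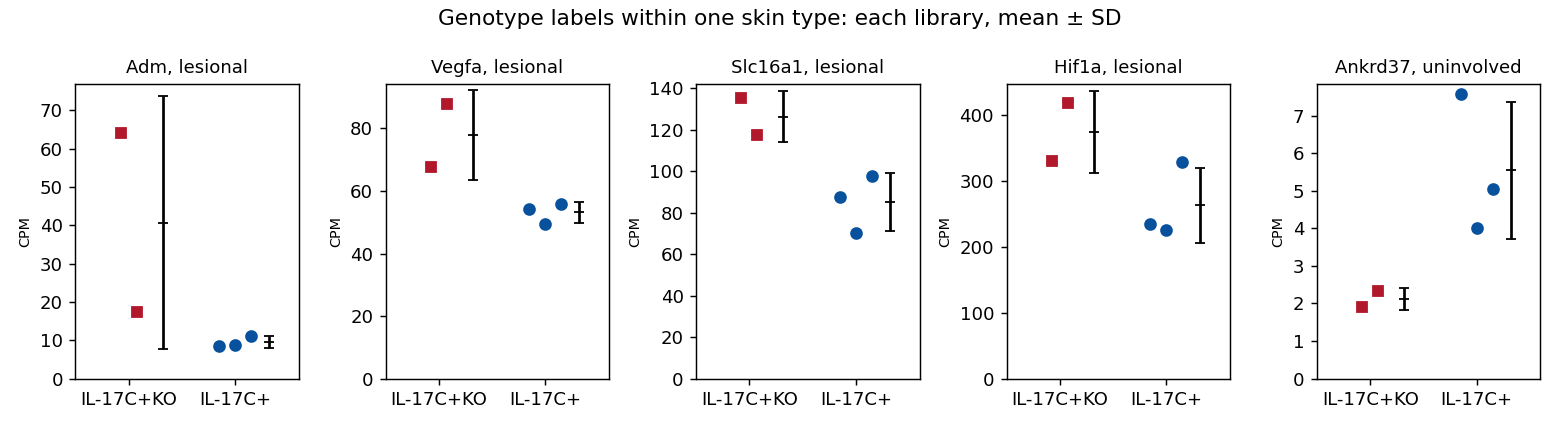
CPM of Adm, Vegfa, Slc16a1 and Hif1a in lesional skin and of Ankrd37 in uninvolved skin, by genotype label. Points are libraries (2 labelled IL-17C+KO, 3 labelled IL-17C+) and bars the mean ± SD, on axes that start at 0. The Adm mean under the knockout label rests on 1 library at 64.0 CPM and 1 at 17.4 CPM.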

How the data were processed

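The authors deposited, per library, a read count and an FPKM value (fragments normalised by the authors to transcript length and library size) for 24358 gene symbols, per the file headers. The submitters' processing notes name cutadapt 1.6, TopHat2 2.0.12, HTSeq (no version), Cufflinks 2.2.1 and mm10; the sources used here give no annotation, strand setting or treatment of multiply mapped reads. Deposited counts are whole numbers and were used as raw counts; deposited FPKM served for levels between genes and 3 alternative fits. Groups and mouse numbers come from the labels.

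Counts were tested in R 4.3.3 with edgeR 4.0.16 (filterByExpr, TMM, robust quasi-likelihood F tests, Benjamini-Hochberg over all genes tested, FDR 0.05), with the mouse as a block between skin types and without one between genotype labels. Values per library are TMM-scaled CPM, and mouse differences use log2 CPM (prior count 2). Pairing follows from the labels, which tie both biopsies to a mouse; deviations of the paired libraries from their group means correlated at -0.122 to 0.034. No 2 libraries were identical.

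All 31 genes were named; values of every library were given for Hif1a, Slc2a1, Hk2, Ldha, Vegfa and the 2 of each role with the smallest p, and elsewhere the 4 members, or 3 genes of a pathway list, with the smallest p, except that 2 such list genes are not reported here. Members and lists were chosen with earlier results of these data known. Alternatives were DESeq2 1.42.0, limma 3.58.1 (voom, and log2(FPKM + 1) or log2(FPKM + 0.1) with genes of a mean of at least 0.5 FPKM or unfiltered), RLE size factors, library totals without muscle genes and Il17c, no count filter, no mouse block, 1 genotype label alone and leaving out each mouse. The scripts were tested on simulated data. Coordinates are from GENCODE M21 (GRCm38, the assembly of mm10), promoters from RefSeq (GRCm38.p6).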

Additional observations from a re-analysis of the deposited data

Results flagged for a closer look

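Among 31 genes, each with 5 mouse differences between lesional and uninvolved skin, 2 had a mouse far from the other 4 by Dixon's test with a critical value of 0.71. Chance gives such a gap in about 1 of 20 groups. Hk2 was higher in lesional skin of mouse 2237 by 1.4184 on the log2 scale and lower in the other 4 mice. The muscle marker sum had a log2 ratio of 0.11 in mouse 2237 and was lower in lesional skin of the other 4 mice. Its part was not tested. Ndrg1 was lower in lesional skin of mouse 2392, at -0.3678 on the log2 scale, and higher in the other 4 mice by 0.18 to 0.24.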

How the results depend on the processing

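For lesional against uninvolved skin over all 5 mice, edgeR called 8 genes and none of the 31. DESeq2 called 2036 genes and 8 of the 31, the fit with no replicate block 891 and 2, and leaving out 1 mouse gave 0 to 1249 genes and 0 to 1 of the 31 (1249 and Hk2 without mouse 2237). Without a count filter 15 genes were called, by voom 4 and by unfiltered FPKM 1. In IL-17C+ mice DESeq2 called 247 genes, FPKM with pseudocount 1 called 1 with or without the filter and pseudocount 0.1 called 2. In IL-17C+KO mice, against 2, DESeq2 called 1157 and 4 of the 31, no filter 5, filtered FPKM 6 with either pseudocount, the fit with no replicate block 0, the fit of that label's libraries alone 0 and leaving out 1 mouse 0 to 11. The block changed no other call of the 31. For the difference of the lesional changes DESeq2 called 6 genes, filtered FPKM with pseudocount 1 called 1 and unfiltered 2. Between labels in lesional skin DESeq2 called 213 and 1 of the 31, no filter 1, and the FPKM fits 4, 3 (unfiltered) and 6 (pseudocount 0.1). In uninvolved skin DESeq2 called 11, the FPKM fits 9, 9 and 12, and leaving out 1 mouse gave 0 to 241 (241 without mouse 2275).

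Some directions turned, and since edgeR called none of the 31 this says nothing of called changes. P4ha1 was 0.005 by DESeq2 (0.004978) and with RLE (0.005293), and 0.11, 0.11 and 0.12 by FPKM; Egln3 was 0.081, 0.081 and 0.082 and Pfkfb3 0.0498, 0.0498 and 0.0586 by FPKM, where the median of all genes was 0.1, 0.0312 and 0.123 (pseudocount 1, the same unfiltered, and 0.1). Leaving out 1 mouse gave Adm -0.40 to 0.35, Ddit4 -0.13 to 0.15, Egln3 -0.20 to 0.12, Hk1 -0.0491 to 0.49, P4ha1 -0.0621 to 0.0526, Pfkfb3 -0.36 to 0.17, Pgk1 -0.0045 to 0.16, Pkm -0.0114 to 0.17, and for the difference of Bnip3 -1.84 to 0.0795. The cause of these shifts was not tested. Hif1a was 1.02 to 1.18 under all alternatives that kept 5 mice. Depth limits the rarest genes most, Car9 (35 reads in 1 library), Ankrd37 and Slc2a3.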
